A study of Brassica napus with 2 samples.

Results

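The genes described here are the *B. napus* orthologs of 2 *Arabidopsis Aux/IAA* genes, *IAA8* (AT2G22670) and *IAA9* (AT5G65670), in seedlings with and without auxin. Membership was set by orthology, with earlier results of these data already known. An *Aux/IAA* gene was a member when its assigned *Arabidopsis* ortholog was AT2G22670 or AT5G65670. This gave 7 of the 119 *Aux/IAA* genes of the genome, 2 orthologs of *IAA8* and 5 of *IAA9*. Of these, 6 had values, among 93 *Aux/IAA* genes with values and 63193 genes with values in all. The *IAA9* ortholog *BnaAX.IAA.1* had no value, and why was not tested. None of the 63193 genes was at 0 in both libraries, so "all genes" below means genes detected in at least 1 library. The IAA group was 30-day-old seedlings kept for 3 h with 1 μM IAA, which is indole-3-acetic acid, an auxin made by the plant itself. The control group was seedlings of the same age kept for 3 h without IAA, in water by the label and in liquid medium by the study's methods. Each group was a pool of 10 whole seedlings sequenced as 1 library, so that a difference between them has no replicate check, and fewer cells that express a gene cannot be told apart from less RNA per cell. The markers of seedling tissues were not checked, since the gene identifiers are not paired with gene names outside the *Aux/IAA* family.

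Aux/IAA proteins are short-lived repressors. They bind auxin response factors (ARFs) at the promoters of auxin-responsive genes and recruit TOPLESS corepressors through domain I. Auxin glues domain II of the repressor to the TIR1/AFB F-box proteins, the repressor is degraded, and the ARF is freed. Many *Aux/IAA* genes are themselves ARF targets, so that auxin raises the transcripts of its own repressors. *IAA8* and *IAA9* are close relatives in *Arabidopsis*. *IAA8* has been linked there to lateral roots and floral organs, and loss of the tomato *IAA9* gene gives simple leaves and fruits without seeds.

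On the Darmor-*bzh* genome v4.2, 4 of the 7 orthologs lie on chromosomes and 3 on unplaced sequence, and each gene model has 5 exons. The *IAA8* orthologs form 1 homeologous pair, a pair of corresponding copies from the An and Cn subgenomes. *BnaA04.IAA.1* (BnaA04g13090D) spans 11018728 to 11020583 of chromosome A04, and *BnaC04.IAA.2* (BnaC04g35180D) spans 36607369 to 36609004 of chromosome C04. The *IAA9* orthologs form 2 homeologous pairs and 1 copy without a partner. *BnaA06.IAA.4* (BnaA06g24570D) spans 17083586 to 17085974 of chromosome A06 and is paired with *BnaCX.IAA.2* (BnaCnng13150D), at 12007909 to 12010479 of the unplaced Cn sequence. *BnaA09.IAA.2* (BnaA09g07160D) spans 3536517 to 3538470 of chromosome A09 and is paired with *BnaCX.IAA.5* (BnaCnng57860D), at 57563044 to 57565013 of the unplaced Cn sequence. *BnaAX.IAA.1* (BnaAnng04980D) lies at 5546749 to 5548247 of the unplaced An sequence.

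The PCR primers designed in the study for each *IAA8* copy are shown because the forward primers share a stretch in which they are nearly alike. How fragments are divided between similar copies can bear on their values. How alike the copies are beyond these primers was not tested. Letters that differ within the stretch shared by the forward primers are in capitals.
BnaA04.IAA.1 forward: tgacagctcaaccAttcccaatG
BnaC04.IAA.2 forward: acagctcaaccGttcccaatCttg
BnaA04.IAA.1 reverse: agatatcctcttttgttgcctg
BnaC04.IAA.2 reverse: agcatggtctttacaaggaagc
The forward primers share a stretch of 21 bases, of which 19 are identical. The differences, as *BnaA04.IAA.1* letter, position from the 5′ end of its primer and *BnaC04.IAA.2* letter, are A14G and G23C. No protein or promoter sequence of these genes was used here.

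Expression was given as FPKM, a fragment count divided by transcript length and library size, so that levels of different genes can be compared. *BnaA04.IAA.1*, the An copy of *IAA8*, was at 1.06 FPKM in the IAA library, against 2.61 FPKM in the control library. *BnaC04.IAA.2*, its Cn copy, was at 6.47 FPKM in the IAA library, against 9.88 FPKM in the control library. Both copies were thus lower in the seedlings with IAA. *BnaA06.IAA.4*, an *IAA9* ortholog, was at 127 FPKM in the IAA library, against 92.4 FPKM in the control library. Its homeolog *BnaCX.IAA.2* was at 63.7 FPKM in the IAA library, against 49.3 FPKM in the control library. These *IAA9* copies were both higher with IAA. *BnaCX.IAA.5* was at 71.9 FPKM in the IAA library, against 49.3 FPKM in the control library. *BnaA09.IAA.2*, its An homeolog, was at 40.4 FPKM in the IAA library, against 33.8 FPKM in the control library. All 4 *IAA9* orthologs with values were therefore higher with IAA, the opposite direction to the *IAA8* pair.

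**Figure D1:**
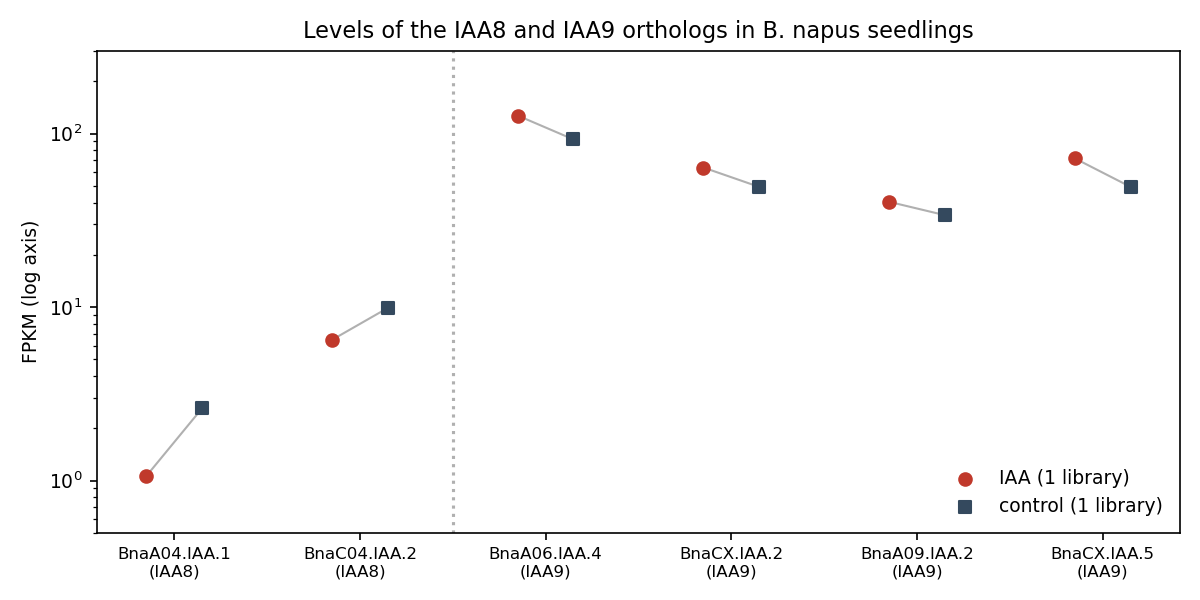
FPKM on a log axis for each *IAA8* and *IAA9* ortholog with values, in the IAA library (red circles) and the control library (dark squares), joined by a line. The 4 *IAA9* orthologs lie between 33.8 and 127 FPKM and slope down to the control, and the 2 *IAA8* orthologs lie between 1.06 and 9.88 FPKM and slope up to it.

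The *IAA9* orthologs lay in the upper part of the family by level. Of the 93 *Aux/IAA* genes, *BnaA06.IAA.4* ranked 7 by FPKM in the IAA library and 5 in the control library. *BnaCX.IAA.5*, *BnaCX.IAA.2* and *BnaA09.IAA.2* ranked 16, 19 and 24 with IAA, and 13, 14 and 18 in the control. *BnaA06.IAA.4* lay above 98.7% of all genes in the IAA library and 98.1% in the control library. The lowest *IAA9* ortholog, *BnaA09.IAA.2*, still lay above 94.3% of all genes with IAA and above 93.1% in the control. *BnaC04.IAA.2* ranked 52 of 93 with IAA and 35 in the control, and lay above 69.2% of all genes with IAA and 76.4% in the control. *BnaA04.IAA.1* ranked 81 with IAA and 59 in the control, and lay above 35.9% of all genes with IAA and 48.5% in the control. These percentages are over genes with values, and no gene at 0 FPKM in both libraries is among them. The lowest *IAA9* ortholog exceeded the highest *IAA8* ortholog 6.24-fold in the IAA library and 3.43-fold in the control library. Among neighbours in the order of levels, *BnaCX.IAA.5* and *BnaCX.IAA.2* could not be separated in the control library, where the ratio of the first to the second was 1.00 (95% exact binomial interval from 0.938 to 1.07). With IAA that ratio was 1.13 (interval from 1.06 to 1.20). For every other neighbouring pair the interval left out equal levels in both libraries.

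These intervals rest on fragments estimated from the FPKM values, since read counts were not used. The depth was taken as the one that brought low FPKM values of the family nearest to whole fragments, which was 18300000 fragments in the IAA library and 23700000 in the control library. All 17 *Aux/IAA* genes with up to 20 fragments in the IAA library, and all 23 in the control library, then lay within 0.1 of a whole fragment, but 9 and 13 of them had served to choose the depth. At these depths *BnaA04.IAA.1* had 26 fragments with IAA and 83 in the control, and *BnaC04.IAA.2* had 132 with IAA and 261 in the control. The *IAA9* orthologs had between 1048 and 4042 fragments with IAA and between 1137 and 3814 in the control. The *IAA9* values are therefore far better determined than the *IAA8* values. The intervals cover counting error only. Variation from pool to pool, and errors in dividing fragments between similar copies, are not in them.

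The change with IAA is given as a log2 fold change, IAA over control, with 0.1 FPKM added to each value. For *BnaA04.IAA.1* it was -1.22 (interval from -2.00 to -0.65), which made this gene 2.46-fold lower by the FPKM values themselves. For *BnaC04.IAA.2* it was -0.60 (interval from -0.92 to -0.30). Both intervals lay below no change. For *BnaCX.IAA.5* the log2 fold change was 0.54 (interval from 0.45 to 0.64), the largest increase of these genes. For *BnaA06.IAA.4* it was 0.46 (interval from 0.39 to 0.52), for *BnaCX.IAA.2* 0.37 (interval from 0.28 to 0.46) and for *BnaA09.IAA.2* 0.25 (interval from 0.13 to 0.38). All 4 *IAA9* intervals lay above no change and below a 2-fold increase, so that none of them overlapped either *IAA8* interval.

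**Figure D2:**
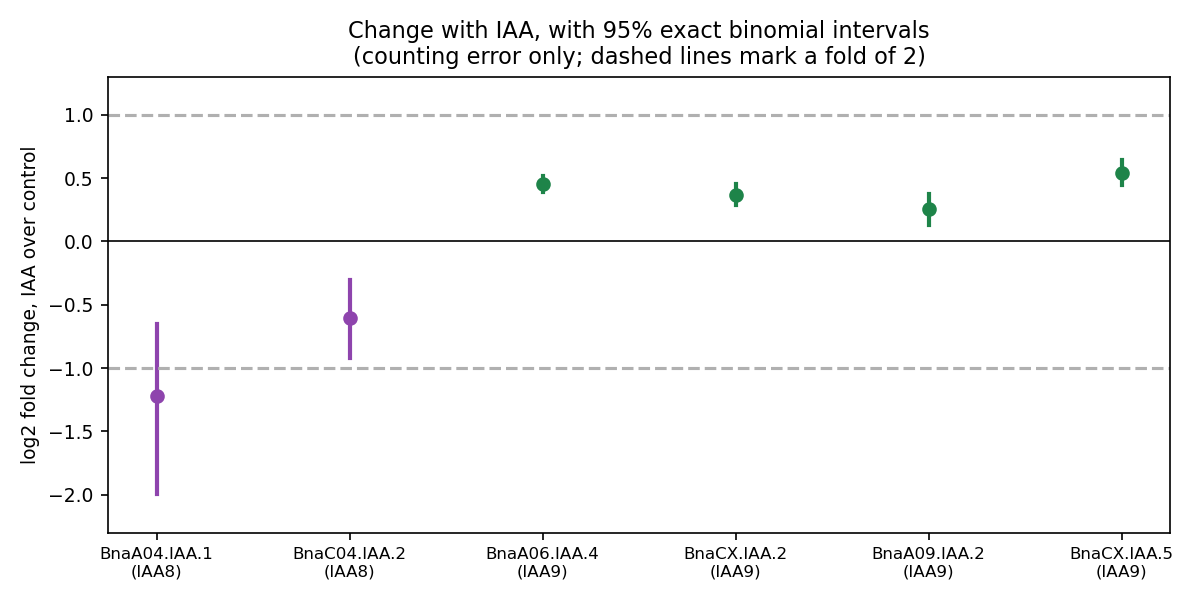
Log2 fold change (IAA over control, 0.1 FPKM added) of each *IAA8* ortholog (purple) and *IAA9* ortholog (green), with bars for the 95% exact binomial interval of the estimated fragments and dashed lines at a fold of 2. The *IAA8* intervals lie below 0 and the *IAA9* intervals above it, and only *BnaA04.IAA.1* has its value past a dashed line.

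At a fold of 2, 1 of the 6 genes, *BnaA04.IAA.1*, was lower and 0 were higher with IAA. Over all 63193 genes with values, 8.68% were lower and 4.22% higher by that measure, so that these counts do not set the group apart. The shares were 4.86% and 2.51% among the 43979 genes that reached 1 FPKM in either library, and 1.63% and 2.03% among the 15641 genes that reached 10 FPKM. The call of *BnaA04.IAA.1* depended on the added value, since its log2 fold change was -0.81 when 1 FPKM was added. The median log2 fold change was 0.31 over the 6 genes, against 0.67 over the other 87 *Aux/IAA* genes and -0.13 over all genes. Because the *IAA8* and *IAA9* orthologs lay on opposite sides of 0, this median describes neither: it was -0.91 for the *IAA8* pair and 0.41 for the 4 *IAA9* orthologs. Changes of the size seen for *IAA9* were not rare. Among the genes that reached 10 FPKM, 6.14% had a log2 fold change as high as that of *BnaCX.IAA.5*, and 17.1% one as high as that of *BnaA09.IAA.2*. Among the genes that reached 1 FPKM, 3.16% had a log2 fold change as low as that of *BnaA04.IAA.1*, and 12.5% one as low as that of *BnaC04.IAA.2*.

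Sums over the copies depend less on how fragments were divided between them. The *IAA8* orthologs together reached 7.54 FPKM in the IAA library, against 12.5 FPKM in the control library. The *IAA9* orthologs together reached 303 FPKM in the IAA library, against 225 FPKM in the control library, which was 1.35-fold higher. The summed *IAA9* level, over 4 genes, was thus 40.2 times that of *IAA8*, over 2 genes, in the IAA library. In the control library it was 18.0 times. The pair of *BnaA06.IAA.4* and *BnaCX.IAA.2* (1.34-fold) and that of *BnaA09.IAA.2* and *BnaCX.IAA.5* (1.35-fold) were higher to a similar extent. The 93 *Aux/IAA* genes together were 1.95-fold higher with IAA, so that the *IAA9* orthologs made up 8.99% of the summed FPKM of the family in the IAA library and 13.0% in the control library. The *IAA8* orthologs made up 0.224% with IAA and 0.721% in the control.

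The copies of each homeologous pair were expressed unequally, and the stronger copy was not always from the same subgenome. The log2 ratios have 0.1 FPKM added to each value, and their intervals are of the fragments without that addition. In the *IAA8* pair the An copy was the weaker. Its log2 ratio of An to Cn was -2.50 in the IAA library (interval from -3.28 to -2.00) and -1.88 in the control library (interval from -2.29 to -1.56). By the FPKM values themselves the Cn copy was at 6.09 times the An copy with IAA and 3.79 times in the control. In the *IAA9* pair of chromosome A06 the An copy was the stronger, with a log2 ratio of 0.99 with IAA (interval from 0.92 to 1.07) and 0.91 in the control (interval from 0.83 to 0.98). In the *IAA9* pair of chromosome A09 it was again the weaker, at -0.83 with IAA (interval from -0.94 to -0.72) and -0.54 in the control (interval from -0.65 to -0.43). The direction of each imbalance was the same in both libraries.

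**Figure D3:**
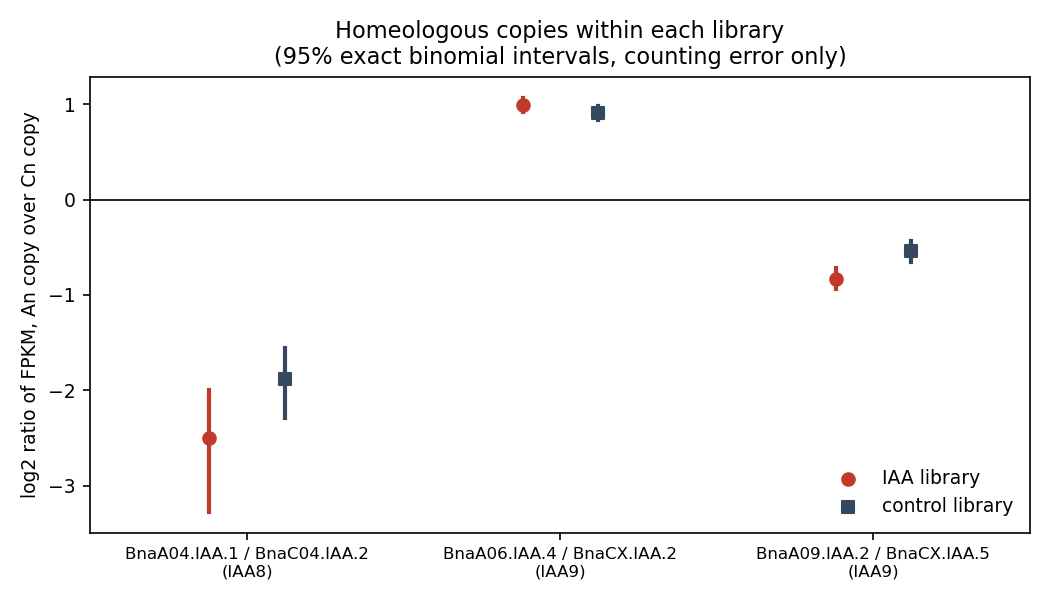
Log2 ratio of FPKM (0.1 FPKM added) of the An copy over the Cn copy for the 3 homeologous pairs with values. The IAA library is in red circles and the control library in dark squares. Bars are 95% exact binomial intervals of the estimated fragments, without the added value. The *IAA8* pair lies at -2.50 and -1.88, the pair of *BnaA06.IAA.4* at 0.99 and 0.91, and the pair of *BnaA09.IAA.2* at -0.83 and -0.54.

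Between these libraries homeologs changed in the same direction, but beyond counting error not all to the same extent. Variation from pool to pool is not in the intervals. The log2 fold change of *BnaA09.IAA.2* less that of *BnaCX.IAA.5* was -0.29, and the exact interval of the log2 odds ratio of their fragments, from -0.45 to -0.13, left out 0. For *BnaA06.IAA.4* less *BnaCX.IAA.2* it was 0.09, with an interval from -0.02 to 0.19. For *BnaA04.IAA.1* less *BnaC04.IAA.2* it was -0.62, with an interval of the log2 odds ratio from -1.46 to 0.04, so that a difference within the *IAA8* pair was not detectable at this depth. Among the 27 homeologous *Aux/IAA* pairs with at least 1 FPKM in both copies and both libraries, the copies differed by 0.22 at the median and 0.89 at most, and in none did the copies have opposite signs. Of these pairs, 4 were further apart than the *IAA8* pair and 10 further than *BnaA09.IAA.2* and *BnaCX.IAA.5*. The part that divided fragments play in these differences was not tested.

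Set beside the rest of the family, the *IAA8* and *IAA9* orthologs fell at different places. There were 23 *Arabidopsis* genes with at least 2 *B. napus* orthologs at 1 FPKM or more in at least 1 library. The *IAA8* set, of only 2 genes, had the lowest median log2 fold change of these, at -0.91, followed by the set of AT3G16500 at -0.54. It was also lowest with 1 FPKM or 0.01 FPKM added. Of its genes, *BnaA04.IAA.1* had 26 estimated fragments with IAA. The other, *BnaC04.IAA.2*, at -0.60, lay within the range of the AT3G16500 set, from -0.95 to -0.34. The *IAA8* set was 1 of 3 sets in which every gene was lower with IAA. The *IAA9* set took place 9 from the lowest, with 14 sets above it, and its 4 genes spanned 0.29, a wider range being found in 19 sets. By summed FPKM the *IAA9* set ranked 4 of 23 in the IAA library and 3 in the control library, and the *IAA8* set 21 in the IAA library and 16 in the control library. Single genes followed the same order. Of 81 *Aux/IAA* genes at that minimum, 19 were lower with IAA, and *BnaA04.IAA.1* was the lowest of all and *BnaC04.IAA.2* took place 6 from the lowest, whereas the *IAA9* orthologs took places 26 to 36. With 1 FPKM added, *BnaA01.IAA.5*, an ortholog of AT3G16500 named after its values were seen, was the lowest, at -0.91, and *BnaA04.IAA.1* took place 2.

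**Figure D4:**
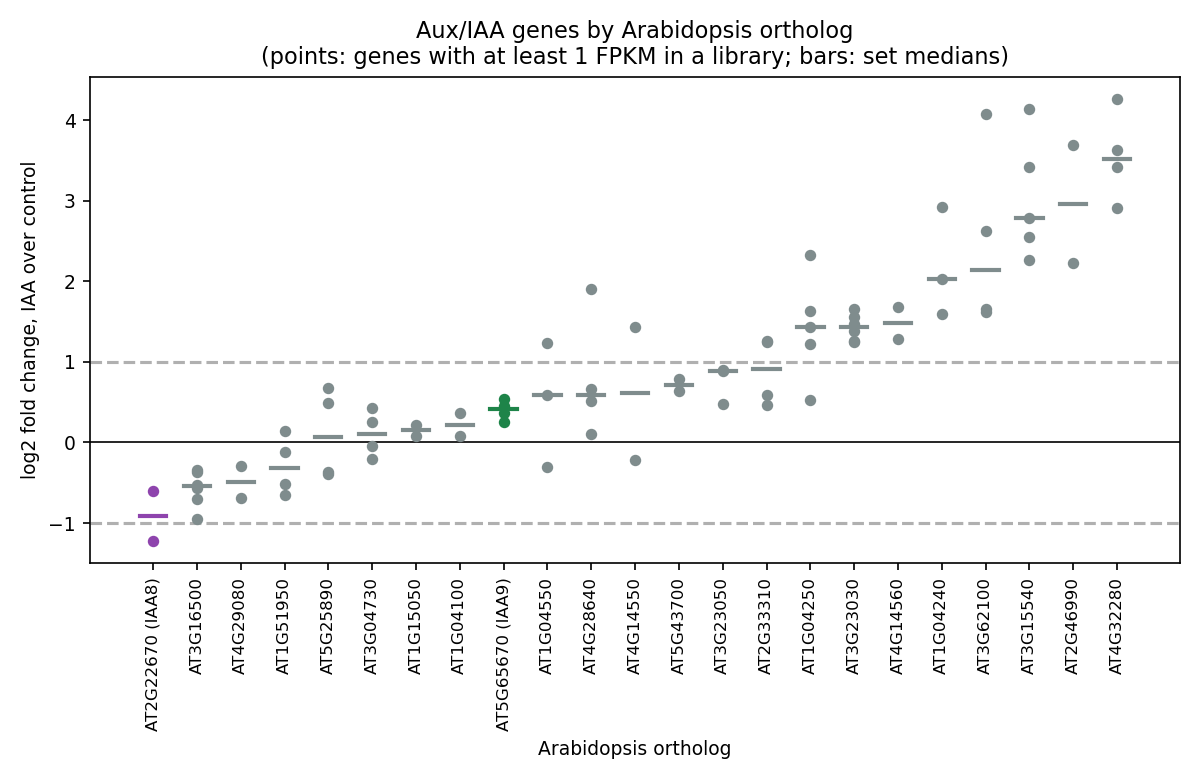
Log2 fold change (IAA over control) of *Aux/IAA* genes grouped by *Arabidopsis* ortholog, for 23 sets in order of their median (bars), with *IAA8* in purple, *IAA9* in green and dashed lines at a fold of 2. The *IAA8* set, of 2 genes, has the lowest median, at -0.91, and the *IAA9* set lies in a narrow band around its median of 0.41.

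In the phylogeny of the family, *IAA8* and *IAA9* belong to subgroup A2, which held 5 further genes with values. None of these was past a fold of 2 in either direction, 4 of 5 were lower and 1 was higher with IAA, and their median log2 fold change was -0.30. The orthologs of AT4G29080 (*IAA27*, also a repressor of auxin response) among them were near the level of *BnaC04.IAA.2* and above that of *BnaA04.IAA.1*. *BnaA01.IAA.2* was at 4.81 FPKM with IAA, against 7.81 FPKM in the control (log2 fold change -0.69), and *BnaC01.IAA.2* was at 7.74 FPKM with IAA, against 9.53 FPKM in the control (log2 fold change -0.30). The other 3 genes were below 1 FPKM in both libraries, with at most 18 estimated fragments. Within subgroup A2 the *IAA9* orthologs were thus the genes at high levels, and apart from *BnaCX.IAA.1*, with 8 fragments with IAA and 7 in the control, the only ones higher with IAA. Past a fold of 2 there were 39 higher and 0 lower among the 87 other *Aux/IAA* genes, beside the 4.22% and 8.68% of all genes.

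The *Aux/IAA* genes most like the members were sought by the distance between their log2 values in the 2 libraries, which is a likeness of 2 numbers and no more. *BnaAX.IAA.2*, an ortholog of AT3G04730 (*IAA16*), was nearest to both *BnaCX.IAA.5* and *BnaCX.IAA.2*, at a distance of 0.28 and 0.33, with 71.3 FPKM with IAA and 60.0 FPKM in the control. *BnaA08.IAA.4*, an ortholog of AT1G04250 (*IAA17*), was also among the 3 nearest to both, with 88.7 FPKM with IAA and 38.1 FPKM in the control. So was *BnaC07.IAA.3*, an ortholog of AT5G25890 (*IAA28*), with 48.2 FPKM with IAA and 63.3 FPKM in the control, which was lower with IAA. No gene was among the 3 nearest to both copies of *IAA8*.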

How the data were processed

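RNA was sequenced in 2 libraries, 1 per condition. The authors aligned reads with HISAT2 2.0.4 against Darmor-*bzh* v4.2 and deposited FPKM values from Cufflinks 2.2.1, which can divide fragments between similar copies. The members and lists were chosen with earlier results of these data known. By the plan, named genes were all members and any other *Aux/IAA* gene among the 3 nearest of at least 2 members. The other genes of subgroup A2 were planned as counts only. *BnaA01.IAA.2*, *BnaC01.IAA.2* and *BnaCX.IAA.1* of that subgroup, and *BnaA01.IAA.5*, were named outside the plan. Gene positions, transcript lengths, orthologs and subgroups came from the study's gene lists; its tissue values were not used.

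Log2 fold changes, and log2 ratios of An to Cn copies, were computed from FPKM with 0.1 FPKM added. This was done in Python 3.11.15 (scipy 1.17.1, pandas 2.3.3, numpy 2.4.6), and figures were drawn with matplotlib 3.10.9. Fragments were estimated as FPKM times transcript length less mean fragment length (195 bp) times depth. Depth and fragment length were those up to 30000000 fragments that brought low *Aux/IAA* values nearest to whole fragments (9 genes in the IAA library and 13 in the control). The ratio of the depths (control over IAA) was 1.30, beside 1.29 found most often among 5083 genes under 0.3 FPKM. Intervals at 95% are exact (Clopper-Pearson, or conditional for odds ratios) and are of fragments without an added value. Without replicates no test of the conditions was made. Depth estimates and intervals were tested on simulated data. Alternatives were pseudocounts of 1 and 0.01 FPKM, minimum levels, centring, rescaling to the upper quartile, and other fold thresholds.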

Additional observations from a re-analysis of the deposited data

How the results depend on the processing

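No paired analysis was possible because there was 1 library of each kind. Of 24 log2 fold changes recomputed under the pseudocounts and scalings tried, 22 lay inside the counting interval, 2 outside it and 0 changed sign. Those 2 came from centring, which added 0.09 to the IAA library, whereas the upper quartile scaling added -0.005. The signs were not put to a strict check. An equal pseudocount in both libraries cannot change a sign, and both shifts were smaller than the change of every member. Centring also moved the log2 ratio of the summed *IAA9* FPKM to 0.52, against 0.43. With 1 FPKM added, 0 of the 6 genes were at least 2-fold lower and the log2 ratio of *BnaA04.IAA.1* to *BnaC04.IAA.2* with IAA was -1.86. At a fold of 1.5, 2 were lower, and at a fold of 4, 0. The median of the 6 genes lay between 0.31 and 0.40. Over all genes, against 2668 at least 2-fold higher and 5487 lower, there were 666 and 873 with 1 FPKM added, 4311 and 9099 with 0.01 FPKM added, 1103 and 2137 when a library had to reach 1 FPKM, 752 and 1408 when both had to reach 0.5 FPKM, 5635 and 12204 at a fold of 1.5, 724 and 1160 at a fold of 4, and, chosen after seeing the data, 318 and 255 when a library had to reach 10 FPKM. The direction of these shifts in count is fixed by the settings. A larger added value brings every ratio nearer to equal levels, a minimum level removes genes, and a higher fold threshold calls fewer. Depth limits the *IAA8* copies most.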
